A study of Mus musculus with 8 samples.

Results

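The AP-1 and Egr immediate early factors were examined in 8 mouse mammary tumours, on the 11 array probes whose RefSeq accession belongs to 10 genes: Fos, Fosb, Fosl1, Fosl2, Jun, Junb, Jund, Egr1, Egr2 and Egr3. The array holds 55681 distinct probes, of which 39795 were bright enough to be tested, all 11 of these among them, and the 10 genes stand among 16761 named genes tested. The 4 FGFR1 KO tumours came from K19-tva mice that are fgfr1loxP/loxP, and the 4 WT tumours from K19-tva mice without the floxed allele, all on the FVB background, into which the floxed allele was backcrossed from ICR. K19-tva mice carry the avian retrovirus receptor tva, named with the keratin 19 promoter. The Cre that would delete the floxed part, the agent that started the tumours and the ages of the mice were not stated in the sources used here. Each tumour RNA was hybridised to 1 array with 2 colours, against a universal human reference RNA. A value below is the log2 ratio of tumour signal (red) to reference signal (green). A difference is FGFR1 KO minus WT on that scale, so a difference of 1 is a doubling of the ratio.

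Immediate early genes are transcribed within minutes of a growth factor signal, without new protein synthesis. Fibroblast growth factor receptors activate the kinase ERK, which phosphorylates ternary complex factors bound with SRF at the Fos and Egr promoters. Fos and Jun proteins pair through leucine zippers to form AP-1, while Egr proteins bind GC-rich DNA through zinc fingers. Transcripts of this class are short-lived, and in a tumour piece they can also come from stromal, vessel, fat or muscle cells. In such bulk RNA, fewer cells of a type and less RNA per cell cannot be told apart.

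Promoter sequences, of 250 bases before to 50 after the start, were found for 7 of the 10 genes in RefSeq's GRCm38.p6 annotation. The promoter set used here held none for Fosl1, Egr1 and Egr3, which were not searched. They were searched on both strands for the sites through which these factors and SRF are known to act. The stretches that held a match are printed 5′ to 3′ on the gene's strand, each with 10 bases on either side and the matched letters in capitals.
Jun: agcctcggggTGACATCAtgggctattt
Fosb: tgacgcaagcGCGGGGGCGggtcccggag
Fosl2: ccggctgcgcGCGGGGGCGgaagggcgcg
Egr2, upstream match: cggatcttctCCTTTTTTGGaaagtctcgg
Egr2, downstream match: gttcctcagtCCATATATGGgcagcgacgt
The Jun stretch (chr4:95052250-95052277, minus strand) holds TGACATCA, the AP-1-like site described for the autoregulated Jun promoter, a motif found in 4.18% of the 27025 genes with a promoter sequence. The Fosb stretch (chr7:19310077-19310105, minus strand) and the Fosl2 stretch (chr5:32136383-32136411, plus strand) hold the Egr motif GCGNGGGCG, found in 6.27% of genes. The Egr2 stretches (chr10:67537484-67537513 and chr10:67537787-67537816, plus strand) each hold a CArG box, the binding motif of SRF, found in 1.81% of genes. None of the 7 promoters held TGACGTCA or TGACTCA, which occurred in 2.03% and 5.95% of genes. Fos, Junb and Jund held no match to any motif searched, within these windows only. These matches are descriptions of sequence in these windows and were not tested as sites.

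Depth and array quality set limits on these values. Of 59305 spots, 68.9% to 83.9% were called well above background in red in FGFR1 KO tumours, against 43.9% to 69.2% in WT tumours. The median net red signal was 228, 67, 121 and 190 on FGFR1 KO 1 to 4, against 203, 110, 190 and 156 on WT 1 to 4. WT 1 and WT 3, with the lowest shares (43.9% and 48.9%), were not the dimmest, so counts of called arrays do not rank signal between groups. The FGFR1 KO and WT arrays lay in separate rows of 1 slide. Position on the slide and genotype therefore cannot be told apart. WT 2 resembled the other arrays least (mean correlation 0.379, against 0.598 to 0.713 for the other 7). The median of 8 muscle markers was at most 0.71 on the FGFR1 KO arrays, against 2.75 on WT 1, 8.63 on WT 2, 0.02 on WT 3 and 0.08 on WT 4. That of 8 fat markers was at most 0.43 on the FGFR1 KO arrays, against 3.64 on WT 1, 4.30 on WT 2, 0.43 on WT 3 and 0.41 on WT 4. The median of 5 luminal mammary epithelial markers was 1.47 to 2.41 on the FGFR1 KO arrays, against -2.74 on WT 2 and 1.57 to 2.56 on the other WT arrays. Every marker of these lists was well above background on at least 1 array. In a rectangle of the array that begins at row 97 and column 83, called the bright area here, 0 of the 96 negative-control spots exceeded 50 net red intensity units on the FGFR1 KO arrays, against 17.7% to 46.9% of them on the WT arrays. The only probes of Egr1 and Junb, 1 of the probes of Fosl2 and 2 of the 10 Fos spots lay in this area. The brightest probe of Fgfr1, the targeted gene, read 0.31 ± 0.11 in the FGFR1 KO and 0.31 ± 0.06 in the WT tumours (SD, n = 4 each). Its other 2 probes differed by -0.49 ± 0.66 and -0.10 ± 0.41 (SE; limma, adjusted p = 0.841 and 0.951). No source used here places these probes relative to the floxed part, so they check no label.

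The genotype comparison asked whether these ERK-responsive factors differed between FGFR1 KO and WT tumours. No gene of the 10 passed limma's test over all probes (smallest adjusted p = 0.617), and 0 had an unadjusted p under 0.05. Over all 39795 probes, 0.0101% passed and 8.48% had an unadjusted p under 0.05. The 2 groups overlapped in all 10 genes, while over all probes 2.71% were lower and 2.39% higher on every FGFR1 KO array than on any WT array. Of the 10 differences 6 were below 0, a median of -0.13 and a range of -0.54 to 0.60. Fosl1 is among the 6, although its probe was called well above background on 0 of the 4 WT arrays. Over all probes 47.5% were below 0, and the median was 0.02. The absence of calls does not show equal levels: the 95% confidence intervals reached from -1.44 for Jun to 1.45 for Jund. Nothing in the labels ties the tumours to separate animals, and a p-value therefore covers only the spread among these 8 samples.

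**Figure D1:**
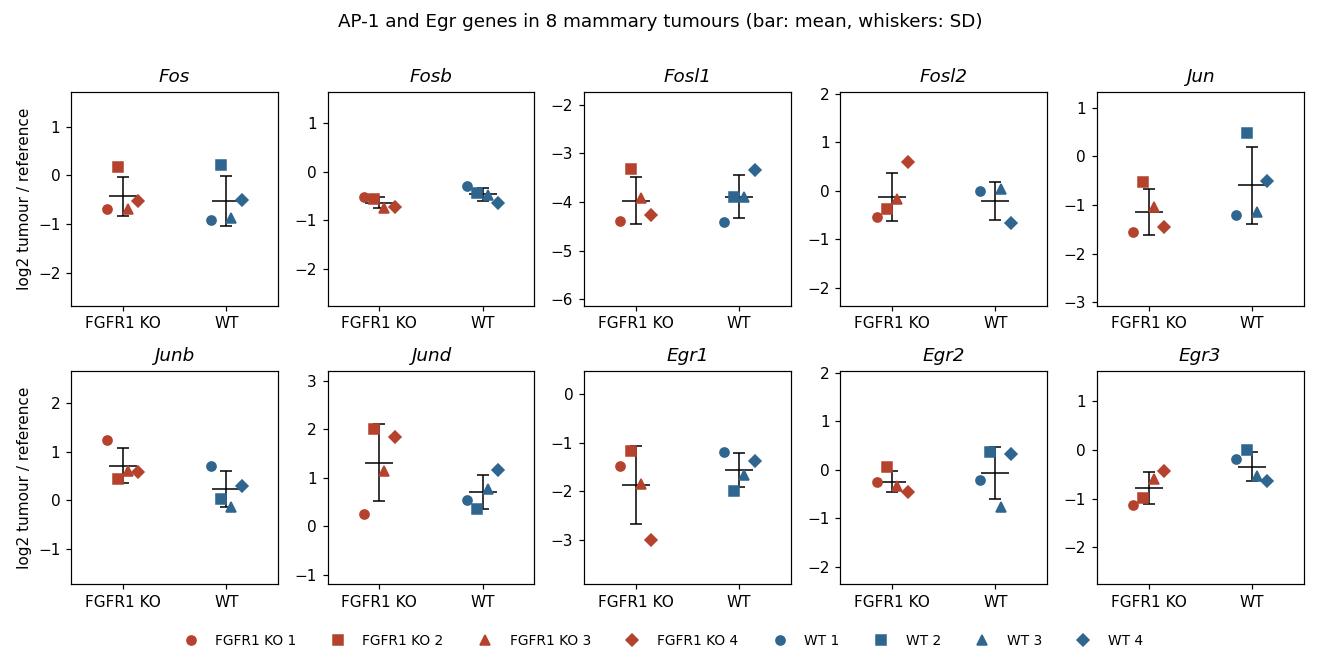
Each panel shows the log2 ratio of tumour to reference for 1 gene on the 4 FGFR1 KO arrays (left, red) and the 4 WT arrays (right, blue), with marker shapes for replicate numbers, a bar at the mean and whiskers of 1 SD; every panel spans the same number of log2 units. The groups overlap in all 10 panels, and the Jun value of 0.48 on WT 2 and the Egr1 value of -3.0 on FGFR1 KO 4 lie apart from the rest of their groups.

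Fos, the founding member of AP-1, was read at the most spots, since its probe A_52_P262219 was printed 10 times. It read -0.69, 0.17, -0.68 and -0.52 on FGFR1 KO 1 to 4, against -0.91, 0.21, -0.88 and -0.51 on WT 1 to 4. The same order held in both groups: the array numbered 2 was highest and the other 3 lay below -0.50. The means were -0.43 ± 0.41 in the FGFR1 KO and -0.52 ± 0.52 in the WT tumours (SD, n = 4 each), a difference of 0.09 ± 0.29 (SE), with a 95% confidence interval from -0.58 to 0.76 (limma, adjusted p = 0.94). The exact permutation test over samples, two-sided here and below, gave p = 0.686, where 4 arrays against 4 allow no p below 0.0286.

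The repeated spots show how much of this spread lies within an array. Among the 8 Fos spots outside the bright area, those kept on an array had an SD of 0.08 to 0.24. The array means of these spots had a larger SD, 0.41 between the FGFR1 KO and 0.55 between the WT arrays. From these spots alone the difference was 0.10 (exact permutation p = 0.686). A Fos spot inside the area (row 142) had net red signals of 88, 49, 51.5 and 129 intensity units on FGFR1 KO 1 to 4. On WT 1 to 4 the same spot had 359, 414, 252 and 205. Feature Extraction marked it as an outlier on each WT array, and it was left out there.

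Fos transcript was dim throughout. The median net red signal over its spots was 100, 57.5, 49.2 and 112 intensity units on FGFR1 KO 1 to 4, against 78, 105, 58.2 and 64 on WT 1 to 4. FGFR1 KO 2 had the highest Fos ratio of its group without the highest net signal: its median red signal over all spots was 67, the lowest of the 8 arrays, where FGFR1 KO 1 had 228. On Agilent's own ratio, which is normalized differently, Fos again was highest on FGFR1 KO 2 (0.22) and WT 2 (0.17). Feature Extraction called the probe well above background on all 4 FGFR1 KO arrays, but on 2 of the 4 WT arrays.

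**Figure D2:**
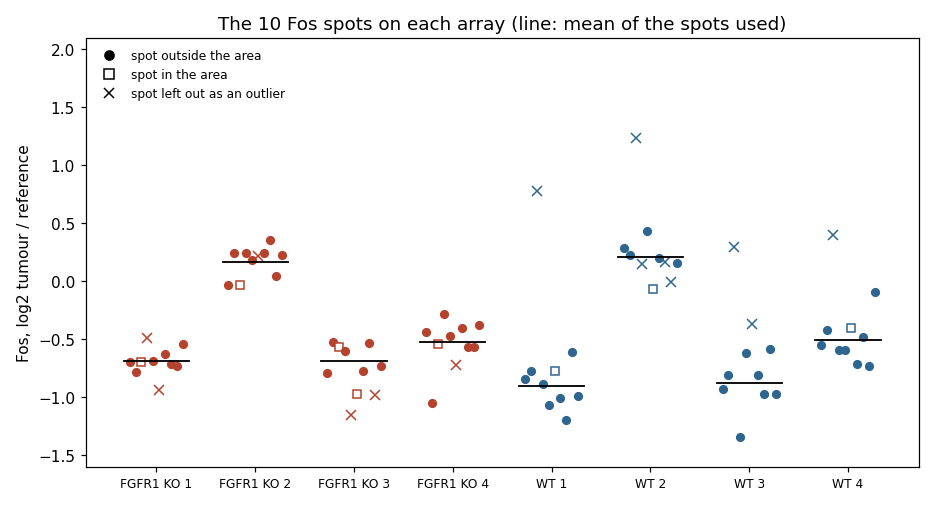
Points are the log2 ratios of the 10 Fos spots on each array, FGFR1 KO arrays on the left; filled circles lie outside the bright area, open squares inside it, crosses were left out as outliers, and lines mark the mean of the spots used. Spots of an array cluster more tightly (SD 0.08 to 0.24 outside the area) than arrays of a group, and the highest cross on each WT array, at 0.78, 1.24, 0.30 and 0.40, is the same spot inside the area.

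Fosb encodes a Fos family protein with a transactivating full-length form. It read -0.53, -0.57, -0.75 and -0.73 on FGFR1 KO 1 to 4, against -0.30, -0.45, -0.49 and -0.64 on WT 1 to 4. WT 1, WT 2 and WT 3 lay above every FGFR1 KO value, and WT 4 lay among them. The difference of -0.17 ± 0.13 (SE) had the narrowest interval of the 10 genes, from -0.48 to 0.13 (limma, adjusted p = 0.73; exact permutation p = 0.114). Its net red signal was 808 to 2260 units on FGFR1 KO and 1240 to 2590 on WT arrays, far above the controls outside the area, whose 95th percentile was 10.7 to 18.4.

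Fosl1 encodes Fra-1, a Fos family member without a transactivation domain that is linked to invasive carcinoma. It read -4.39, -3.31, -3.92 and -4.26 on FGFR1 KO 1 to 4, against -4.42, -3.90, -3.90 and -3.33 on WT 1 to 4, and the groups covered almost the same range. The probe was well above background on all 4 FGFR1 KO arrays and on 0 of the 4 WT arrays, where it has only a bound, so it entered the test through the FGFR1 KO arrays alone. Its net red signal was 28 to 65 units on FGFR1 KO and 21.5 to 67.5 on WT arrays. Its difference is therefore not read as a change in expression. The counts, medians, figures and alternative settings that include Fosl1 hold a computed difference, without WT signal called well above background.

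Fosl2 encodes Fra-2, the close relative of Fra-1, and was read by 2 probes. The brighter one, A_51_P507242, read -0.54, -0.38, -0.17 and 0.59 on FGFR1 KO 1 to 4, against -0.01, 0.04 and -0.66 on WT 1, WT 3 and WT 4. The fit had no value for WT 2, whose spot was marked as an outlier with 4145.5 net red units, against 860 to 1518 on the other WT arrays. The difference was 0.08 ± 0.31 (SE; limma, adjusted p = 0.947). The other probe, A_55_P1995195, lay outside the bright area and read -0.88, 0.42, 0.00 and 0.00 on FGFR1 KO 1 to 4, against -0.30, -0.46, -0.25 and -0.19 on WT 1 to 4. Its difference was 0.19 ± 0.26 (SE; limma, adjusted p = 0.846). FGFR1 KO 1 was the lowest FGFR1 KO array with both probes, while the highest was FGFR1 KO 4 with the first and FGFR1 KO 2 with the second.

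The Jun genes gave the widest differences, and in both directions. Jun, the main partner of Fos in AP-1, read -1.56, -0.52, -1.04 and -1.45 on FGFR1 KO 1 to 4, against -1.21, 0.48, -1.15 and -0.51 on WT 1 to 4. WT 2 stood above all other arrays, and the rest of both groups lay between -1.56 and -0.51. The means were -1.14 ± 0.47 in the FGFR1 KO and -0.60 ± 0.78 in the WT tumours (SD, n = 4 each). The difference was -0.54 ± 0.39 (SE), with an interval from -1.44 to 0.35 (limma, adjusted p = 0.718; exact permutation p = 0.286). Without WT 2, the array with the highest fat and muscle markers, it was -0.19 (limma, adjusted p = 0.907).

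Junb encodes a Jun protein that transactivates less than Jun and can restrain it. It read 1.24, 0.43, 0.60 and 0.57 on FGFR1 KO 1 to 4, against 0.71, 0.03, -0.14 and 0.29 on WT 1 to 4. Every FGFR1 KO value lay above those of WT 2, WT 3 and WT 4, while WT 1 lay among them. The means were 0.71 ± 0.36 in the FGFR1 KO and 0.22 ± 0.37 in the WT tumours (SD, n = 4 each). The difference was 0.49 ± 0.24 (SE), with an interval from -0.06 to 1.04 (limma, adjusted p = 0.621; exact permutation p = 0.143). Without WT 1 and WT 2 it was 0.64 ± 0.27 (SE), with an interval from 0.02 to 1.25 before adjustment (limma, adjusted p = 0.661). It was then the 1 gene of the 10 with an unadjusted p under 0.05, against 7.40% of all probes, and over all arrays but FGFR1 KO 1 the difference was 0.31. Its single spot lay at column 85, near the edge of the bright area, and had 200 to 1160 net red units on FGFR1 KO and 207 to 622 on WT arrays.

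Jund encodes the Jun protein that is made more constantly than the others and can oppose proliferation. It read 0.26, 2.00, 1.14 and 1.83 on FGFR1 KO 1 to 4, against 0.54, 0.35, 0.77 and 1.16 on WT 1 to 4. FGFR1 KO 2 and FGFR1 KO 4 lay above every WT array, and FGFR1 KO 1 below them all. The means were 1.31 ± 0.79 in the FGFR1 KO and 0.71 ± 0.35 in the WT tumours (SD, n = 4 each). The difference of 0.60 ± 0.37 (SE) had an interval from -0.25 to 1.45 (limma, adjusted p = 0.681; exact permutation p = 0.257). It was 0.37 without FGFR1 KO 2 and 0.95 without FGFR1 KO 1. Its probe was bright on every array, with net red signals of 5730 to 14200 units on FGFR1 KO and 2690 to 6410 on WT arrays.

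**Figure D3:**
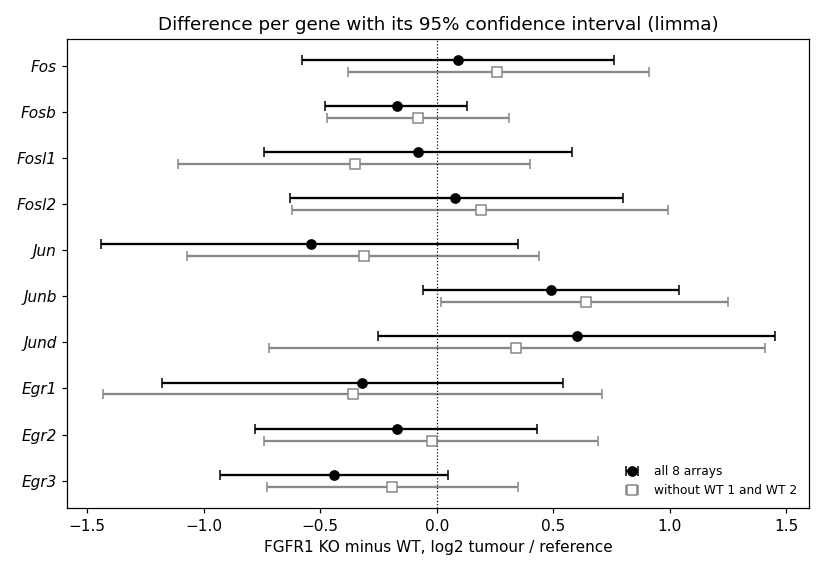
Points are the differences, FGFR1 KO minus WT, in log2 ratio for the 10 genes with limma's 95% confidence intervals, over all 8 arrays (black circles) and without WT 1 and WT 2 (grey squares). All 10 black intervals include 0, as do 9 of the grey ones, and that of Junb runs from 0.02 to 1.25. The Fosl1 points rest on WT values that were not called well above background.

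Egr1, a zinc finger factor that is among the quickest ERK targets, read -1.48, -1.17, -1.85 and -3.0 on FGFR1 KO 1 to 4, against -1.19, -1.99, -1.67 and -1.37 on WT 1 to 4. FGFR1 KO 4 was the lowest array, and the other 3 FGFR1 KO values lay within or just above the WT range. The means were -1.88 ± 0.80 in the FGFR1 KO and -1.55 ± 0.35 in the WT tumours (SD, n = 4 each). The difference was -0.32 ± 0.38 (SE), with an interval from -1.18 to 0.54 (limma, adjusted p = 0.818). It was 0.05 without FGFR1 KO 4 and 0.10 on Agilent's ratio, so its direction was not settled.

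The single Egr1 spot lay in the bright area and was called well above background on 4 FGFR1 KO and 3 WT arrays. Its net red signal was 384, 140, 145 and 101 intensity units on FGFR1 KO 1 to 4, against 319, 90, 203 and 276 on WT 1 to 4. Negative controls in the area had median net red signals of 0, 3, 2.5 and 6 units on FGFR1 KO 1 to 4, against 35.5, 6.25, 41 and 6 on WT 1 to 4. The part of this signal in the Egr1 difference was not tested, because no other Egr1 probe was present outside the area.

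Egr2, a relative of Egr1 known for its part in myelination and immune cells, read -0.24, 0.06, -0.33 and -0.46 on FGFR1 KO 1 to 4, against -0.21, 0.37, -0.77 and 0.33 on WT 1 to 4. The FGFR1 KO values lay inside the WT range, and the difference was -0.17 ± 0.26 (SE; limma, adjusted p = 0.862). With 1 array left out it ran from -0.41 without WT 3 to -0.03 without WT 2, and it was -0.04 without WT 4 and -0.10 without FGFR1 KO 4. It cleared background on 4 of 4 FGFR1 KO arrays and on 2 of 4 WT arrays. The CArG boxes printed above belong to this gene.

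Egr3, which acts partly downstream of Egr1 and of antigen receptor signals in lymphocytes, had the smallest p of the 10 genes. It read -1.14, -0.98, -0.59 and -0.44 on FGFR1 KO 1 to 4, against -0.19, -0.01, -0.54 and -0.64 on WT 1 to 4. FGFR1 KO 1 and FGFR1 KO 2 lay below every WT array, WT 1 and WT 2 above every FGFR1 KO array, and the remaining 4 arrays lay together between -0.64 and -0.44. The means were -0.79 ± 0.33 in the FGFR1 KO and -0.35 ± 0.30 in the WT tumours (SD, n = 4 each). The difference was -0.44 ± 0.21 (SE), with an interval from -0.93 to 0.05 (limma, adjusted p = 0.617; exact permutation p = 0.143). Without WT 1 and WT 2, the arrays with raised fat and muscle markers, it was -0.19 (limma, adjusted p = 0.956). The Egr3 probe was called well above background on all 4 FGFR1 KO arrays, but on 2 of the 4 WT arrays. WT 1 and WT 3 missed the call, which limits this comparison.

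Without WT 1 and WT 2, the arrays with raised fat and muscle markers, 0 of the 10 genes passed limma's test and their median difference was -0.05. Among the AP-1 genes the difference was then 0.26 for Fos, -0.08 for Fosb, 0.19 for Fosl2, -0.31 for Jun and 0.34 for Jund. Egr1 and Egr2 differed by -0.36 and -0.02.

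The 10 genes did not all follow 1 pattern across tumours. The median of the 10 values was -0.62, -0.45, -0.64 and -0.49 on FGFR1 KO 1 to 4, against -0.26, 0.03, -0.66 and -0.58 on WT 1 to 4. Over the 8 arrays Fos correlated with Jun at 0.79 and with Egr2 at 0.69, and over the 6 arrays without WT 1 and WT 2 at 0.61 and 0.59. Fos and Egr1 correlated at -0.03 over the 8 arrays and at 0.30 over the 6. These values share arrays and dim signals, and are given as descriptions. Among 10963 other genes outside the bright area, the patterns most like that of Fos were those of Zswim9 (r = 0.98), Pigl (0.98) and Rala (0.97), and those most like that of Egr1 were Gpr152 (0.98), Rbms1 (0.96) and Trappc8 (0.95), over 8 arrays. They were picked as the highest of 10963 values over few arrays, were not tested, and are descriptions only.

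Partners of AP-1 and related leucine zipper genes were measured for 12 of 13 genes. None passed limma's test in either direction, and the median difference was -0.06. An unadjusted p under 0.05 was found for 2 of the 12, a share of 16.7% against 8.48% of all probes, and for 0 without WT 1 and WT 2. Maf, a large Maf family factor, read -1.79, -1.35, -1.34 and -1.95 on FGFR1 KO 1 to 4, against 0.30, 1.66, -1.40 and -1.09 on WT 1 to 4. Its difference was -1.48 ± 0.60 (SE; limma, adjusted p = 0.56), -0.88 without WT 2 and -0.37 without WT 1 and WT 2. Maff, a small Maf protein without a transactivation domain, differed by -0.76 ± 0.35 (SE; limma, adjusted p = 0.605), and by -0.41 without WT 2. Atf2, a partner of Jun, differed by 0.42 ± 0.18 (SE; limma, adjusted p = 0.578), with a spot in the bright area, and by 0.27 without FGFR1 KO 2. Its groups did not overlap, with -0.40 to 0.24 in FGFR1 KO and -0.84 to -0.47 in WT tumours, as was so of 2.39% of all probes.

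Other immediate early genes were measured for 22 of 24 genes. Of these 14 were below 0, the median difference was -0.51, and 0 passed limma's test in either direction. An unadjusted p under 0.05 was found for 7 of them, all lower in FGFR1 KO tumours, a share of 31.8% against 8.48% of all probes. The list was made with earlier results of these data known, so this count is not independent evidence. The list's median was -0.50, -0.21, -0.43 and -0.74 on FGFR1 KO 1 to 4, against 0.03, 0.28, -0.41 and -0.19 on WT 1 to 4. Without WT 1 and WT 2, the median difference was -0.04, with 12 of 22 below 0. An unadjusted p under 0.05 was then found for 3 of the 22, against 7.40% of all probes. Outside the bright area the median difference over all 8 arrays was -0.18 over 17 genes. The median of 8 fibroblast markers was lower on every FGFR1 KO array, at -2.44 to -0.68, than on any WT array, at -0.55 to 0.19, and its part in this list was not tested.

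Within that list, Klf4, a zinc finger factor of epithelial differentiation, read -1.10, -0.97, -0.92 and -1.42 on FGFR1 KO 1 to 4, against 0.21, 0.73, -0.75 and -0.27 on WT 1 to 4. Every FGFR1 KO value lay below every WT value, as was so of 2.71% of all probes, and the difference was -1.08 ± 0.30 (SE; limma, adjusted p = 0.413). It was -0.59 without WT 1 and WT 2. The probe was called well above background on only 3 FGFR1 KO and 2 WT arrays, which limits the other values. Ccn1, which encodes a secreted matricellular protein, read -3.21, -3.02, -2.67 and -3.54 on FGFR1 KO 1 to 4, against -2.03, -2.81, -1.51 and -2.02 on WT 1 to 4. Its difference was -1.02 ± 0.29 (SE; limma, adjusted p = 0.433), and -1.35 without WT 1 and WT 2, and its spot lay in the bright area. Gadd45b, a stress-induced gene, differed by -1.0 ± 0.30 (SE; limma, adjusted p = 0.44), and by -0.68 without WT 1 and WT 2. Egr4, the remaining Egr gene, differed by -1.12 ± 0.34 (SE; limma, adjusted p = 0.441), with a spot in the bright area, and was named after its value was seen.

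**Figure D4:**
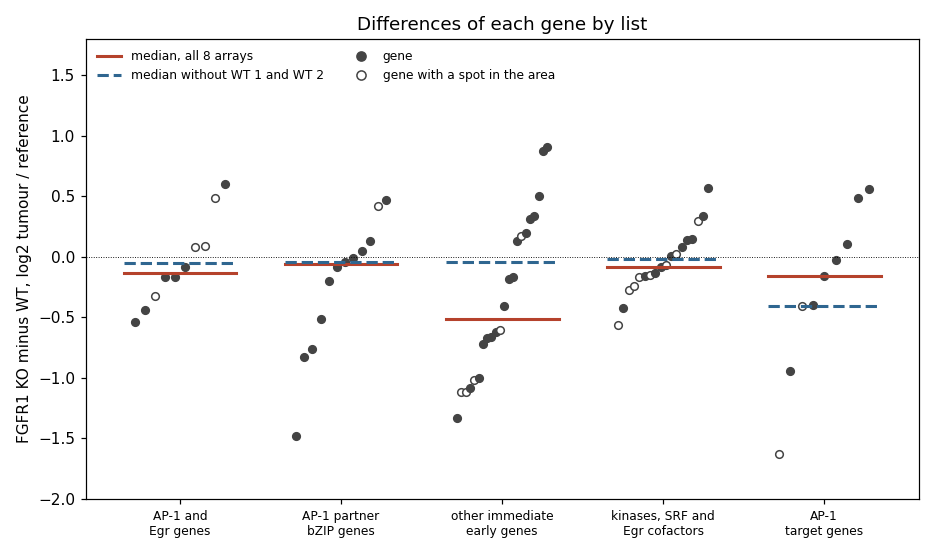
Each point is the difference, FGFR1 KO minus WT, in log2 ratio of 1 gene, by list, with open circles for genes that have a spot in the bright area; solid lines are medians over all 8 arrays and dashed lines medians without WT 1 and WT 2. The median of the other immediate early genes lies at -0.51 over all arrays and at -0.04 without WT 1 and WT 2, while the medians of the AP-1 and Egr genes lie at -0.13 and -0.05.

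Kinases and factors that act on Fos and Egr transcription were measured for all 18 genes of their list. None passed limma's test, 10 were below 0, and the median difference was -0.08, or 0.05 over the 10 genes outside the bright area. An unadjusted p under 0.05 was found for 1 of the 18, a share of 5.56%, which is below the 8.48% of all probes. Mapk8, which encodes the Jun kinase JNK1, differed by -0.56 ± 0.18 (SE; limma, adjusted p = 0.455), with a spot in the bright area. Elk3, a ternary complex factor, differed by -0.27 ± 0.16 (SE; limma, adjusted p = 0.666), and by -0.15 without WT 2, with a spot in the bright area. Srf, the factor that binds CArG boxes, differed by 0.34 ± 0.21 (SE; limma, adjusted p = 0.678), with 0.91 on FGFR1 KO 4, -0.03 to 0.23 on FGFR1 KO 1 to 3, and -0.08 to 0.07 in WT tumours. It was 0.14 without FGFR1 KO 4.

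Genes described as AP-1 targets were measured for 9 of 12 genes. None passed limma's test, 6 were below 0, and the median difference was -0.16, with an unadjusted p under 0.05 for 1 gene, a share of 11.1% against 8.48% of all probes. Without WT 1 and WT 2 the median was -0.41, with 7 of 9 below 0. An unadjusted p under 0.05 was then found for 3 of the 9, against 7.40% of all probes. This list, like the others, was made with earlier results of these data known, so these counts are not independent evidence. Over the 7 genes outside the bright area the median was -0.03. Mmp3, the matrix protease stromelysin-1, read -1.06, -1.05, -0.50 and -1.87 on FGFR1 KO 1 to 4, against 1.76, -1.10, 1.26 and 0.11 on WT 1 to 4. WT 2 lay among the FGFR1 KO arrays, and the difference was -1.63 ± 0.59 (SE; limma, adjusted p = 0.511), with a spot in the bright area. Mmp13, a collagenase, differed by -0.94 ± 0.45 (SE; limma, adjusted p = 0.613), by -1.37 without WT 1 and WT 2, and by -0.49 without WT 3, its highest array at 1.94. Timp1, an inhibitor of these proteases, differed by -0.41 ± 0.22 (SE; limma, adjusted p = 0.64), by -0.70 without WT 1 and WT 2, and by -0.27 without WT 3. The Timp1 spot lay in the bright area. The median of the 8 fibroblast markers was -1.04, -1.21, -0.68 and -2.44 on FGFR1 KO 1 to 4, against 0.19, -0.55, 0.18 and -0.17 on WT 1 to 4, and its part in these differences was not tested.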

How the data were processed

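Agilent Feature Extraction 11.0.1.1 quantified the 2-colour arrays, whose design is mapped to mm9, per the file headers. The deposited median signals and backgrounds are intensities without correction, the processed signals are background-subtracted and dye-normalized intensities, and the deposited ratio is log10 of red over green. The authors' deposited series matrix was taken as log2 red over green. It correlated at 0.892 to 0.947 with Agilent's ratio, which gives the direction but not the log base. Its differences were close in size to those here for Jun (-0.54 in both) and Jund (0.61 against 0.60). Fos, Fosl1 and Fosl2 changed sign in it. On FGFR1 KO 1 to 4 its columns had medians of 0.0152, -0.0155, -0.00112 and 0.00458. On WT 1 to 4 the medians were -0.00481, -0.00181, -0.00562 and 0.00171. Its normalization and centring are not given in the sources used here.

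Red was taken as tumour per the labels' labelling protocol, although the label field names cy3. Green varied less within groups (median SD 0.164 in FGFR1 KO and 0.188 in WT) than red (0.269 and 0.367), which is the pattern of a common reference.

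Ratios were derived with limma 3.58.1 under R 4.3.3: normexp background correction (offset 50) on median signals, loess within each array with control and outlier spots at weight 0, and the mean over a probe's remaining spots. A probe was tested when red was well above background on at least 4 of 8 arrays and at least 3 values per group existed. Groups were compared by lmFit and eBayes, with p-values adjusted by Benjamini and Hochberg's method across the 39795 probes and a threshold of 0.05, after tests on simulated data. The other test was an exact permutation over samples. Probes were named by RefSeq accession through a GRCm38.p6 table, which named 28331 probes. A gene is represented by its brightest probe in red. Named genes were the 10 members, the 3 genes of smallest p in each related list, the 3 patterns most like Fos and Egr1, and Fgfr1; Egr4 is outside this rule. Members and lists were chosen with earlier results of these data known. Replicate numbers were not taken to pair the samples. Deviations of same-numbered arrays correlated at -0.04, 0.01, 0.11 and -0.11, which cannot exclude a pairing, as no known pair was there to compare with. Precision is limited by the 8 arrays.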

Additional observations from a re-analysis of the deposited data

How the results depend on the processing

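Across 20 alternative settings, 0 of the 10 AP-1 and Egr genes passed limma's adjusted threshold. Fosb, Jun, Junb, Jund and Egr3 kept their direction in every setting that gave them a value. Other genes turned: Egr1 was 0.10 on Agilent's ratio and 0.26 on red signal alone, Egr2 0.17 on red signal alone, Fos -0.04 and Fosl2 -0.60 in the deposited series matrix, which holds the WT 2 spot left out elsewhere. Fosl1, not called well above background on any WT array, was 0.58 on Agilent's ratio, 0.09 in the series matrix, 0.30 after quantile normalization and 0.69 on red signal alone. Of the related genes, Elk3 was 0.24 and Timp1 0.02 on red signal alone. With 1 array left out, Egr1 ran from -0.56 to 0.05, Fos from -0.11 to 0.33, Fosl1 from -0.30 to 0.11, Fosl2 from -0.15 to 0.22, Jund from 0.37 to 0.95, Jun from -0.75 to -0.19, Junb from 0.31 to 0.65 and Egr2 from -0.41 to -0.03. On red signal alone the median over the 10 genes was 0.23 and 3 were below 0, and 2 of the 5 genes left were below 0 when a probe had to clear background on each of the 8 arrays. Except where fewer probes or arrays entered, the cause was not tested.

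The 4 probes called over the whole array were 0 with Agilent's ratio, quantile normalization, red signal alone, trend and robust eBayes, the bright area left out, probes above background on all 8 arrays, and without WT 1 and WT 2. They were 4 with no background correction, 6 in the deposited series matrix, 11 with array weights and 139 with no filter on dim probes. With 1 array left out they were 0 to 1. With the replicate number as a block the count was 0, the median over the 10 genes stayed at -0.13 and 6 were below 0. Settings for the related lists were added after seeing the data. The probes of Fos, Fosl1, Egr2, Egr3 and Klf4 were called well above background on 2 or fewer WT arrays, which limits these genes. That call did not follow net red signal between arrays. Egr3 missed it on WT 1 with 185.5 units and met it on FGFR1 KO 2 with 28.5. Egr1 and Junb had no value with the bright area left out, and Fos, Fosl1, Egr1, Egr2 and Egr3 had none when all 8 arrays had to clear background.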
